A study of Rattus norvegicus with 7 samples.

Results

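The genes described here are receptors, ligands, the DNA-binding factor and target genes of the Notch pathway in the rat meibomian gland, whose cells burst to release the oily layer of the tear film at the lid margin. They were chosen by symbol, as a set of 10 names that stand for the parts of the pathway; earlier results of these data were known when the set was made. Of these, 9 were found among the 17246 genes analysed, namely Notch1, Notch2, Notch3, Jag1, Jag2, Dll1, Rbpj, Hes1 and Heyl, and Hey1 was not analysed here. All 9 passed the low-count filter and were tested. The study compared the glands of ultraviolet B (UVB) irradiated rats (3 libraries) with those of untreated rats (4 libraries). All animals were wild-type female Sprague-Dawley rats aged 3 months. In the UVB group the shaved upper lids received 300 mJ/cm2 in 5 min on each of 5 days, and the glands were then dissected from the removed lids. The same protocol text stands with every library, controls included, although these are labelled as having had no treatment. The labels do not say how long after the last exposure the lids were taken or whether control lids were shaved. They also do not say that each library came from another animal. The p-values therefore set the group difference against the spread between these libraries, which need not be that between animals.

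Notch receptors are membrane proteins that are activated by ligands on a neighbouring cell. Ligand binding exposes the receptor to proteases, and the released intracellular part enters the nucleus, where it binds the DNA-binding factor RBPJ and switches on genes such as Hes1, whose products are repressors. In skin, Notch signalling is known for guiding keratinocytes from the basal into the suprabasal layers, and in blood vessels for shaping endothelial and mural cells.

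RBPJ recognises the core TGGGAA, and the pathway's best-known target carries that core near its start. The 250 bases before the annotated start of Hes1 (chr11:84213046-84213295, minus strand), Dll1 (chr1:64993275-64993524, minus strand) and Notch2 (chr2:188299086-188299335, plus strand) are shown from RefSeq in the rat build GRCr8, to set the target gene beside a ligand that holds the same core and the receptor whose level differed between the groups. Capitals mark TGGGAA or, where the match is on the opposite strand, TTCCCA.
Hes1: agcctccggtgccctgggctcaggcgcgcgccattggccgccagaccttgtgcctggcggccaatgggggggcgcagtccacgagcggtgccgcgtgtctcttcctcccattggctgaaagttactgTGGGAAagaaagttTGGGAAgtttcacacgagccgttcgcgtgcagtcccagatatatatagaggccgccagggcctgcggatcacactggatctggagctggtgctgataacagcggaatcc
Dll1: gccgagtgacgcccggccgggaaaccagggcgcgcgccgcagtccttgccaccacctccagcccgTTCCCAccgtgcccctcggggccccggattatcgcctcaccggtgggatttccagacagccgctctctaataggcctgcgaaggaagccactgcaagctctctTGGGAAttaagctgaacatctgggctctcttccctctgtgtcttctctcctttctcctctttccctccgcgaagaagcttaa
Notch2: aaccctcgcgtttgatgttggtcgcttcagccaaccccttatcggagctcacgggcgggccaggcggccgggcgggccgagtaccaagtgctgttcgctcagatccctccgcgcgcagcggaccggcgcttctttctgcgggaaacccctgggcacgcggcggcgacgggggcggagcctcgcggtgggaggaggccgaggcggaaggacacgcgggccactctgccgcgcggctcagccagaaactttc
In Hes1 both matches lie on the gene's own strand, with their first bases 123 and 109 bases before the start. Dll1 has a match 185 bases before the start on the opposite strand and another 82 bases before it on its own strand. No TGGGAA is in the Notch2 window. All 9 genes matched the RefSeq table, with 11 windows because Jag2 and Rbpj have 2 each, and 4 of the 11 held the core on either strand (those of Hes1 and Dll1 and both of Rbpj, which overlap and share a match). Among all 33469 windows of the same 250 bases 22.1% held it, and 2.71% held 2 or more. The N box, written CACNAG and known as a binding motif of HES repressors, was counted over both strands. It was found 4 times in the Hes1 window, 4 times in that of Notch1 and 1 time in that of Notch3. In Notch1 the matches 28 and 26 bases before the start overlap, being opposite strands of the same stretch, so they are not separate sites. Counted the same way, the N box was found in 37.2% of all windows, and in 8.02% at least 2 times. The members' windows had a median GC content of 64.4%, against 51.2% over all windows. A match describes letters, and no binding was measured here.

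The libraries held 20680237 to 28784941 counts, and the 8 genes fixed as markers of meibocytes, the lipid-producing cells of the gland, were present at a summed 38844 to 51779 TPM (transcript abundance corrected for gene length) in every library. The letters given to the controls (a to d) and to the UVB libraries (a to c) are names only and pair nothing. Each gene was tested with edgeR's quasi-likelihood test over all 13709 genes that passed the filter, and a gene is said to have risen or fallen where the Benjamini-Hochberg adjusted p was under 0.05. Expression is given as CPM (counts scaled to the TMM-normalised library size) and a log2 fold change is UVB minus control.

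Notch2 fell by 18.9% after UVB, and it was the single member that passed the test. Of the other receptors, Notch3 had higher mean values after UVB without passing, and Notch1 lay slightly below its control mean. No ligand or target was called, and Rbpj was lower in every irradiated library without passing. Of the 9 members 1 was called, and it was lower; among all genes tested 13% were called, 6.3% higher and 6.74% lower. The CPM ranges of the groups did not overlap for 2 of the 9 (Notch2 and Rbpj), against 26.6% of all genes tested. The median log2 fold change of the 9 members was -0.10, with 7 below 0, of which Jag1 (-0.0094) and Jag2 (-0.029) lay close to 0. That of all genes tested was -0.0058, with 6979 of 13709 below 0. Over the fits that left out 1 library the members' median ran from -0.14 (without UVB c) to -0.035 (without control b).

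**Figure D1:**
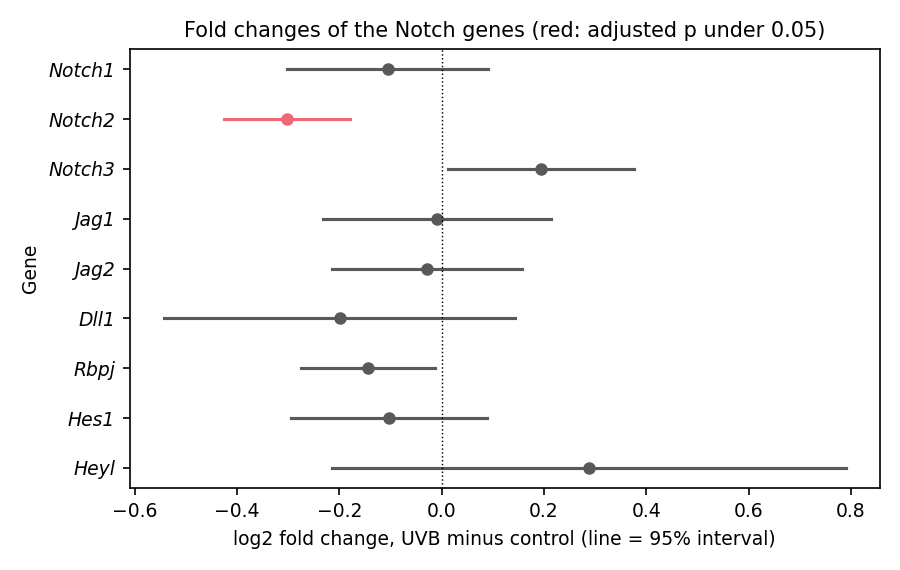
Log2 fold change (UVB minus control, horizontal axis) of the 9 members, with points for the edgeR estimate and lines for its unadjusted 95% interval. Notch2, in red at -0.30, is the single gene with an adjusted p under 0.05; the interval of Heyl, from -0.21 to 0.79, is the widest.

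By level, Hes1 was the most abundant of the 9 and Heyl the scarcest. The mean over the 7 libraries was 70.3 TPM for Hes1, which lies at the 88.4th percentile of all genes. Next came Jag2 at 51.7 TPM, Notch3 at 41.0 TPM and Notch1 at 31.6 TPM. Notch2 at 24.8 TPM, Rbpj at 22.4 TPM and Jag1 at 17.1 TPM formed the middle of the order. Dll1 at 6.13 TPM and Heyl at 2.16 TPM were far lower. Every gene was above the next in that order in 7 of 7 libraries, so the order was the same in control and irradiated glands. The closest neighbours were Notch2 and Rbpj: the ratio of Notch2 to Rbpj was 1.16 ± 0.0657 (SD, n = 4) in controls, and UVB glands had 1.04 ± 0.0276 (SD, n = 3).

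**Figure D2:**
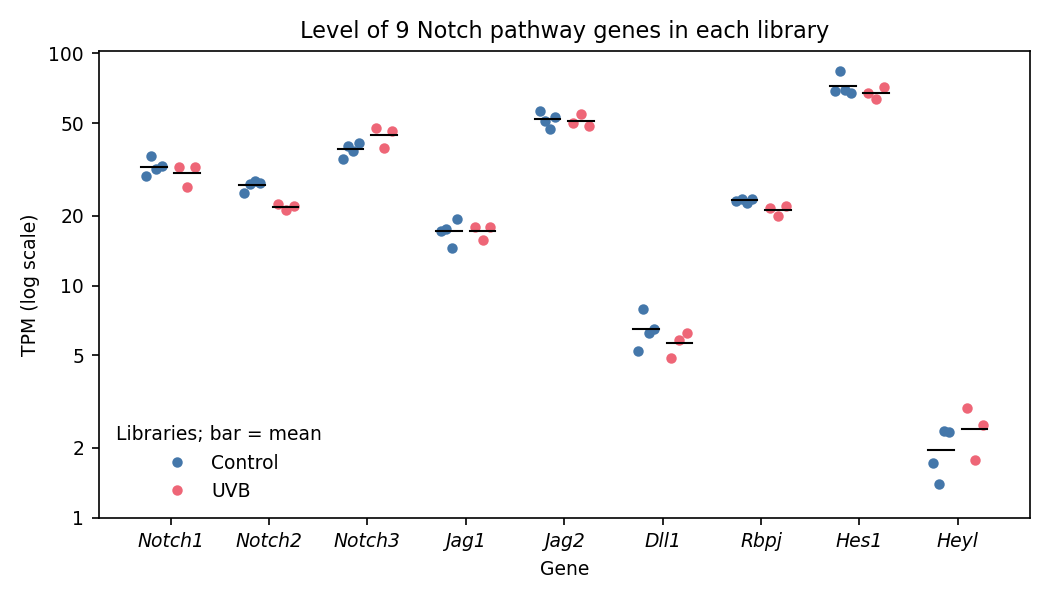
TPM on a log axis for each member, with a point for each library (blue for the 4 controls, red for the 3 UVB libraries) and a black bar for the group mean. The members span from about 2.16 TPM (Heyl) to 70.3 TPM (Hes1), and the blue and red points of Notch2 and of Rbpj are apart.

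Among the receptors, Notch2 (NCBI gene 29492), a widely expressed receptor, measured 164 CPM in control a, 176 in control b, 175 in control c and 176 in control d. After UVB it measured 144 CPM in UVB a, 137 in UVB b and 139.97 in UVB c. Every UVB library was below every control, and the irradiated libraries lay close together. The means were 173 ± 5.84 CPM (SD, n = 4) and 140.1 ± 3.31 CPM (SD, n = 3). The log2 fold change was -0.30 (SE 0.055, adjusted p = 0.0104 by edgeR), so the level fell by 18.9%, with a 95% interval from -25.5% to -11.7%. Of the 1787 genes called, 15.1% had a smaller absolute change than Notch2, and their median was 0.56 on the log2 scale. Its level was even between libraries, with a coefficient of variation within groups of 3.14%, against a median of 10.2% over all genes tested and 6.65% over the 4716 genes with a mean of at least 1000 counts. In whole glands, fewer cells of a type that expresses a gene and less RNA per cell cannot be told apart. The call held in 18 of 18 alternative analyses, at adjusted p-values up to 0.0357, including each that left out 1 library.

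Notch3 (NCBI gene 56761), the receptor best known from vascular mural cells, measured 162, 181, 168 and 189 CPM in controls a to d. In the UVB libraries it measured 212 CPM (a), 179 CPM (b) and 209 CPM (c). UVB a and c were above every control, while UVB b lay among them. The means of 175 ± 12.3 CPM (SD, n = 4) and 200.1 ± 18.7 CPM (SD, n = 3) gave a log2 fold change of 0.19 (SE 0.081, adjusted p = 0.145 by edgeR). The unadjusted 95% interval ran from 0.83% to 29.7% higher. It was not called in any of the 18 alternatives. Its deposited counts were not whole in 3 libraries, so they are estimates there.

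Notch1 (NCBI gene 25496), the receptor best known for driving keratinocyte differentiation, measured 176 CPM in control a, 213 in control b, 181 in control c and 194 in control d. The UVB libraries measured 185 CPM (a), 158 CPM (b) and 189 CPM (c). The groups overlapped, with UVB b lowest and control b highest. The log2 fold change was -0.11 (SE 0.087, adjusted p = 0.456 by edgeR), and the 95% interval ran from 18.9% lower to 6.46% higher. It was -0.050 without control b and -0.025 without UVB b, again on the log2 scale.

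**Figure D3:**
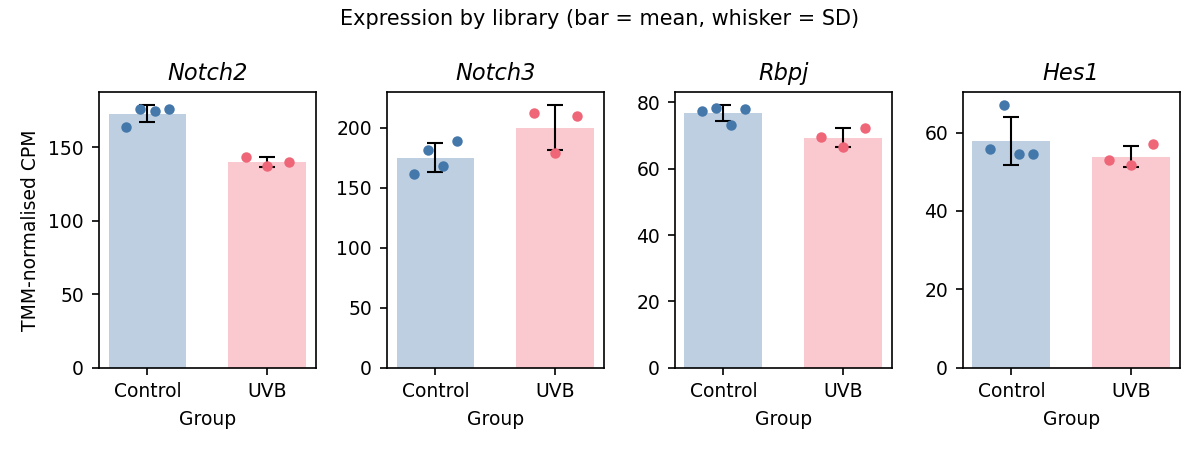
TMM-normalised CPM of Notch2, Notch3, Rbpj and Hes1, each on an axis that starts at 0, with a point for each library, a bar for the group mean and a whisker for the SD (4 controls, 3 UVB). The points of Notch2 separate fully, those of Notch3 overlap through UVB b, and those of Rbpj are apart by a narrow gap.

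Because the receptors share each library, their makeup was also read as shares of the summed TPM of Notch1 to Notch4, given as a description without a test. The sum was 100.2 ± 5.996 TPM (SD, n = 4) in controls; after UVB it was 98.9 ± 8.60 TPM (SD, n = 3), and these ranges overlapped. The share of Notch2 was 26.0% to 28.1% in the controls and 21.4% to 23.8% in the UVB libraries. That of Notch3 was 37.8% to 39.9% in the controls and 43.7% to 45.6% after UVB, so neither range overlapped between the groups. Notch1 held 31.48% to 34.4% in the controls and 29.96% to 31.39% after UVB, also without overlap but by a narrow gap. Shares of the same sum are not independent, and in CPM the groups overlapped for Notch3 and for Notch1. The ratio of Notch3 to Notch2 was 1.40, 1.45, 1.35 and 1.498 in controls a to d, and 2.14, 1.84 and 2.10 in UVB a to c. The lowest irradiated library was thus above the highest control. This ratio was chosen after the values were seen.

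**Figure D4:**
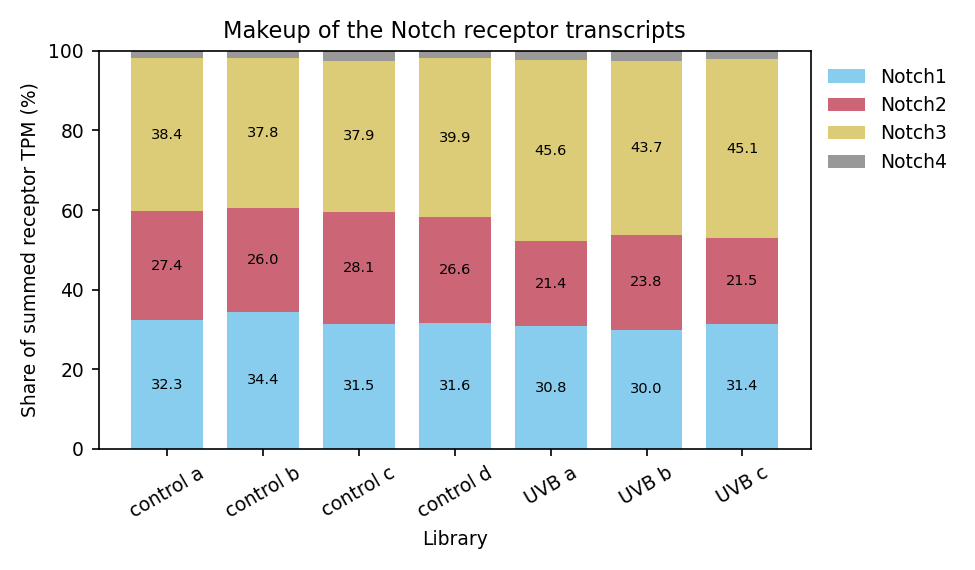
Stacked bars of the share of Notch1, Notch2, Notch3 and Notch4 in the summed receptor TPM (vertical axis, percent) of each library. The Notch2 band is narrower in the 3 UVB libraries, at most 23.8%, than in the 4 controls, at least 26.0%, and the Notch3 band is wider.

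Notch4, the receptor typical of endothelium, was scarce at 1.71 to 2.49 TPM in controls and 2.15 to 2.35 TPM after UVB, with a log2 fold change of 0.15 (SE 0.14, adjusted p = 0.503 by edgeR). Vessel markers were read beside the share over all genes tested, of which 13% were called, 6.3% higher and 6.74% lower. Of 8 endothelial markers tested 3 rose and none fell: Vwf (0.79), Tie1 (0.41) and Cdh5 (0.36), as log2 fold changes, with Emcn (-0.20) below 0 without passing. The endothelial list summed to 68.8 to 86.7 TPM in controls and 92.4 to 105.8 TPM after UVB. Of 10 mural cell markers 3 rose, Pdgfrb (0.65), Des (0.57), a muscle intermediate filament that skeletal muscle also expresses, and Tagln (0.39). Another 4 lay below 0 without passing: Myh11 (-0.31), Rgs5 (-0.25), Acta2 (-0.16) and Cspg4 (-0.021). The mural list summed to 798 to 1016 TPM in controls and 943 to 1057 TPM after UVB. The part of these markers in the Notch3 values was not tested.

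Markers of epithelial and other cell types were read beside the same share over all genes tested, 6.3% called higher and 6.74% lower. Of 6 basal keratinocyte markers 3 rose, Krt14 (0.47), Itgb4 (0.41) and Itga6 (0.25), while the other 3 lay below 0 without passing (Krt5 -0.021, Tp63 -0.089, Col17a1 -0.18). The basal list summed to 8109 to 10332 TPM in controls and 10579 to 11685 TPM after UVB, of which Krt14 alone had means of 5279 and 7338 TPM. Of 8 suprabasal markers Sbsn fell (-0.53) and the others were not called, 5 of the 8 lying above 0, with sums of 4720 to 5621 TPM and 4921 to 7417 TPM. The largest change in that list was an uncalled one, Ivl at -1.32 (adjusted p = 0.108 by edgeR). Its groups did not overlap, at 12.3 to 16.0 TPM in controls and 1.57 to 8.90 TPM after UVB. Of 7 hair follicle markers 4 fell, Msx2 (-1.04), Krt85 (-0.96), Krt35 (-0.95) and Hoxc13 (-0.90), with sums of 616 to 947 TPM in controls and 271 to 734 TPM after UVB. Of 8 meibocyte markers 2 fell, Awat2 (-0.66) and Plin2 (-0.45), while 3 lay above 0 without passing (Fasn 0.32, Pparg 0.22, Soat1 0.10), with sums of 42753 to 51779 TPM and 38844 to 45417 TPM. Of 5 fibroblast markers 3 rose, Lum (1.95), Dcn (0.95) and Pdgfra (0.91), while Col1a1 (-0.48) lay below 0 without passing. Their sums were 649 to 1013 TPM in controls and 867 to 1452 TPM after UVB. Of 6 macrophage markers 2 rose, Cd163 (3.50) and C1qb (1.29), and 3 of the 6 lay below 0. Of 3 T cell markers Cd2 rose (1.14) and the other 2 lay below 0. Skeletal muscle (0 of 5 called, all 5 below 0) and conjunctiva (0 of 3 called, all 3 above 0) were also examined. No marker analysed was listed at 0 in a library. The part of these cell types in the Notch2 values was not tested.

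Among the ligands, Jag2 (NCBI gene 29147), a ligand of stratified epithelia, was the most abundant. It measured 187, 169, 152 and 176 CPM in controls a to d and 161, 182 and 159.8 CPM in UVB a to c. The groups overlapped almost fully. Its log2 fold change was -0.029 (SE 0.083, adjusted p = 0.85 by edgeR), with a 95% interval from 13.8% lower to 11.5% higher. The lower bound lies short of the 18.9% fall of Notch2.

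Jag1 (NCBI gene 29146), the ligand with the broadest known expression, measured 59.7, 60.8, 49.0 and 66.8 CPM in controls a to d. After UVB it measured 60.0, 54.7 and 61.3 CPM in UVB a to c, all inside the control range. Its log2 fold change was -0.0094 (SE 0.0996, adjusted p = 0.964 by edgeR), with a 95% interval from 14.9% lower to 16.0% higher. The ratio of Jag2 to Jag1 on the TPM scale was 2.77 to 3.30 in controls and 2.73 to 3.50 after UVB, ranges that overlap.

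Dll1 (NCBI gene 84010), a Delta-type ligand, measured 9.90, 14.8, 11.5 and 11.97 CPM in controls a to d and 8.86, 11.0 and 11.5 CPM in UVB a to c. UVB a was the lowest of the 7 and control b the highest, and the rest were mixed. Its log2 fold change was -0.20 (SE 0.15, adjusted p = 0.42 by edgeR). At 187 to 333 counts per library and a coefficient of variation of 16.0% within groups, its 95% interval ran from 31.4% lower to 10.5% higher, which holds the 18.9% fall of Notch2. Without control b the log2 fold change was -0.088, and without UVB a it was -0.095. In GRCr8 the gene overlaps Fam120b, and the handling of strand is not given in the sources used here, so its count is uncertain.

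RBPJ is the factor through which all the receptors act on DNA. Rbpj (NCBI gene 679028) measured 77.3, 78.3, 73.0 and 78.0 CPM in controls a to d. After UVB it measured 69.4, 66.5 and 72.1 CPM in UVB a to c. Every UVB library was below every control, but the gap between control c and UVB c was small. The means were 76.7 ± 2.45 CPM (SD, n = 4) and 69.3 ± 2.79 CPM (SD, n = 3), and the log2 fold change was -0.14 (SE 0.058, adjusted p = 0.133 by edgeR). It missed the threshold in the 18 alternatives too, where the adjusted p was 0.115 to 0.329 and the log2 fold change -0.17 to -0.11. Like Notch2 it varied little within groups (coefficient of variation 3.53%).

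Among the targets, Hes1 (NCBI gene 29577), which encodes a repressor induced directly by RBPJ complexes, measured 55.7, 67.0, 54.4 and 54.5 CPM in controls a to d. It measured 52.9, 51.8 and 56.9 CPM in UVB a to c. The groups overlapped, with control b above all other libraries. The log2 fold change was -0.10 (SE 0.085, adjusted p = 0.457 by edgeR), with a 95% interval from 18.5% lower to 6.31% higher. Without control b it was -0.027.

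Heyl (NCBI gene 313575), a HES-related repressor known from vascular smooth muscle, measured 4.99, 4.01, 6.62 and 6.75 CPM in controls a to d and 8.34, 5.15 and 7.13 CPM in UVB a to c. UVB a and c were above every control and UVB b was not, the same libraries as for Notch3. The log2 fold change was 0.29 (SE 0.22, adjusted p = 0.425 by edgeR). With 86 to 192 counts per library, the 95% interval ran from 13.8% lower to 72.9% higher. Leaving out 1 library gave log2 fold changes of 0.16 without control b, 0.13 without UVB a and 0.46 without UVB b. Heyl overlaps the uncharacterised locus LOC108351027 in GRCr8.

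The other genes of the pathway were taken from a list of 73 symbols, of which 71 were analysed and 65 passed the filter. Of the 65, 2 rose and 2 fell, again against 13% of all genes tested; 33 were above 0 and 32 below, and their median log2 fold change was 0.00096. The groups did not overlap for 19 of the 65, a share near the 26.6% of all genes tested.

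The genes that rose came from different lists, Eogt from the other regulators and Rfng from the receptor-modifying enzymes. Eogt, an enzyme that adds N-acetylglucosamine to extracellular domains, measured 33.9, 30.1, 32.5 and 34.1 CPM in controls a to d and 43.9, 38.9 and 41.0 CPM in UVB a to c. All irradiated libraries were above all controls. The log2 fold change was 0.34 (SE 0.073, adjusted p = 0.019 by edgeR), and the call was lost without control c (0.0564) and without UVB a (0.0573).
Rfng, a fringe glycosyltransferase that extends the fucose on the receptor, measured 19.3, 20.5, 21.6 and 20.4 CPM in controls a to d and 26.2, 24.7 and 24.5 CPM in UVB a to c. These groups were apart as well. Its log2 fold change of 0.30 (SE 0.075, adjusted p = 0.0316 by edgeR) missed the threshold in each of the 7 fits that left out 1 library, at adjusted p-values of 0.052 to 0.0834. Mfng, another fringe gene and the most abundant of the role, was not called, at 0.31 (SE 0.19, adjusted p = 0.31 by edgeR). In the list of 7 receptor-modifying enzymes, which does not hold Eogt, 1 rose (Rfng), and 5 of the 7 values were above 0, with a median of 0.18.

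The genes that fell were Neurl1, an E3 ubiquitin ligase that acts on Notch ligands, and Cir1, a corepressor that binds RBPJ. Neurl1 measured 7.002, 9.05, 8.87 and 7.56 CPM in controls a to d and 5.78, 5.85 and 4.16 CPM in UVB a to c, with no overlap on this scale. Its log2 fold change was -0.63 (SE 0.17, adjusted p = 0.0372 by edgeR). On the deposited TPM scale the groups overlapped, at 3.76 to 5.95 in controls and 2.16 to 4.23 after UVB, and the call was lost (log2(TPM + 1) difference -0.35, limma adjusted p = 0.294). It was lost too in 6 of the 7 fits without 1 library, at adjusted p-values of up to 0.1.
Cir1 measured 30.8, 36.0, 34.4 and 34.1 CPM in controls a to d and 27.6, 27.1 and 29.8 CPM in UVB a to c. The log2 fold change of -0.27 (SE 0.076, adjusted p = 0.0488 by edgeR) stood at the threshold and passed in 4 of 18 alternatives, where its adjusted p was 0.0281 to 0.142.

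**Figure D5:**
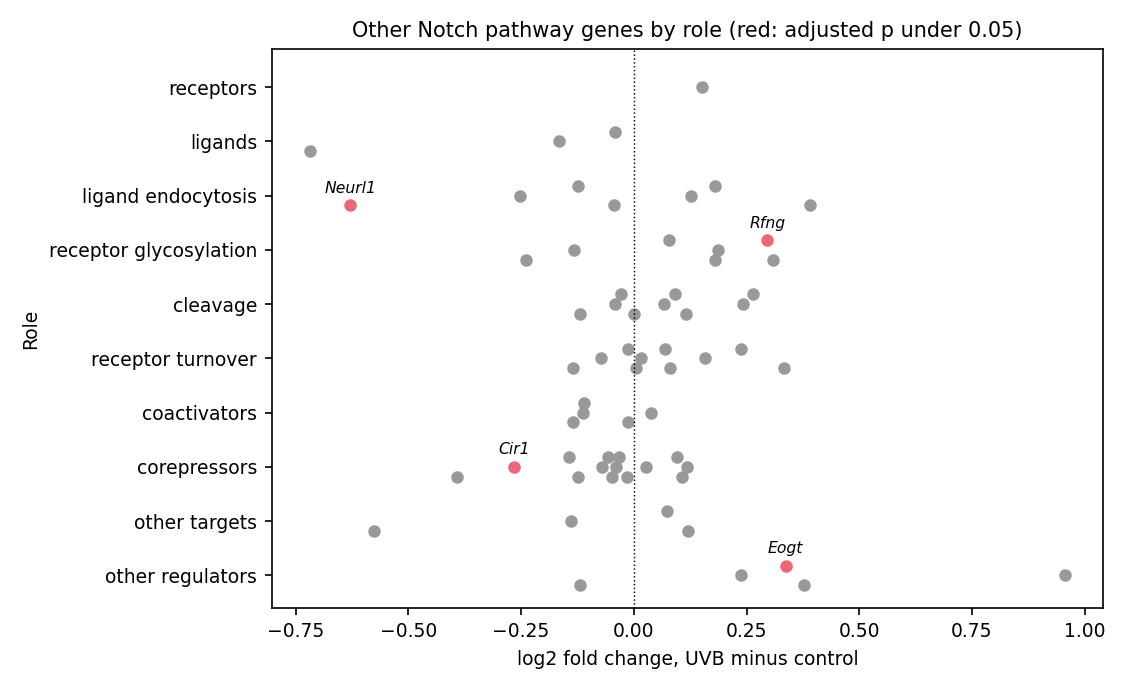
Log2 fold change (UVB minus control, horizontal axis) of the 65 other pathway genes tested, 1 point a gene, in rows by role. The 4 called genes are red and named, with Eogt at 0.34 and Rfng at 0.30 on the right and Neurl1 at -0.63 and Cir1 at -0.27 on the left.

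Receptor cleavage and turnover genes gave no call. Counts by role are read beside the share over all genes tested, of which 13% were called, 6.3% higher and 6.74% lower. None of 9 cleavage genes passed, and their values ran from -0.12 to 0.26; the most abundant, Psenen, a gamma-secretase subunit, had a log2 fold change of 0.09 (SE 0.089, adjusted p = 0.537 by edgeR). Among 10 genes of receptor turnover the range was -0.14 to 0.33, with the ubiquitin ligase gene Nedd4 at 0.081. In ligand endocytosis 1 of 7 fell (Neurl1), and Epn1, an endocytic adaptor and the most abundant there, stood at 0.13. No coactivator of 5 tested was called (Snw1 -0.014), and of 14 corepressor genes 1 fell (Cir1), with Tle5, the most abundant, at -0.07. Ep300, a coactivator that cells in general use, was listed at 0 counts in 6 libraries and 1.84 in the other, so a low value in these tables need not mean a silent gene.

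None of the further ligands and targets was called, beside 13% of all genes tested. Dll4, the endothelial Delta ligand, had a log2 fold change of -0.17 (SE 0.17, adjusted p = 0.559 by edgeR), and Dlk2, a non-canonical relative and the most abundant of the added ligands, stood at -0.042. Hes6 at 0.074 was the most abundant of the added targets. Nrarp, a feedback inhibitor that Notch itself induces, measured 38.5, 41.4, 39.7 and 44.2 CPM in controls a to d and 47.8, 40.6 and 45.2 CPM in UVB a to c. These groups overlapped and its log2 fold change was 0.12 (SE 0.078, adjusted p = 0.336 by edgeR). Hey2, an endothelial target, was at 0.62 to 1.92 TPM in controls and 1.00 to 1.35 TPM after UVB and was not called (adjusted p = 0.83). Hes5 had at most 1 count in a library and was not tested. Of the group of other regulators 1 of 5 rose (Eogt); Egfl7, a secreted vessel protein that is also on the endothelial list, stood at 0.38 (SE 0.12, adjusted p = 0.0693 by edgeR).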

How the data were processed

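RNA sequencing of meibomian glands gave 4 control and 3 UVB libraries. Expected counts per gene, as deposited, are estimated and not normalised (12.5% of values were not whole). TPM values, as deposited by the authors, are corrected for length and scaled to a common total, of which the genes used held 82.0% to 84.1%. Per the submitters' processing notes FastQC, Trimmomatic, DRAGEN, Picard and the build rn7 were used; their order, the gene models and the use of strand are not given in the sources used here. Commas in gene names shifted 2281 rows of each table, and the last 7 cells of a row were taken as its values; 5 rows without 7 values were left out. Columns name the group, not the replicate.

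Expected counts were rounded and tested in edgeR 4.0.16 (R 4.3.3; TMM, filterByExpr, robust quasi-likelihood, threshold 0.05). SEs are the absolute log2 fold change over the square root of F, and 95% intervals use the t distribution with the fit's degrees of freedom. The depth leaves counting error small for all but Dll1, Heyl and scarcer genes. All replicate pairs in a group differed beyond sampling noise (chi-square per degree of freedom at least 10.5). As 18 alternatives, the comparison was rerun with DESeq2 1.42.0, with limma-voom in limma 3.58.1, with 3 other scalings, 2 other count filters and no robust estimation, in 3 limma fits on log2(TPM + 1) or log2(TPM + 0.1), and without each library. The fits were tested on simulated data. Named genes are the members, pathway genes called, the most abundant of each role, Notch4, Dll4, Hes5, Hey2, Nrarp and called markers (up to 4 a list in the endothelial, mural, basal and suprabasal lists; others named here were chosen after their values were seen). Members and lists were chosen with earlier results of these data known. Of 152 listed symbols 8 were not analysed here, and the result of 1 marker list is not reported here. RefSeq tables (GRCr8) gave sequences and overlapping genes; their coordinates are not those of the authors' build.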

Additional observations from a re-analysis of the deposited data

Results flagged for a closer look

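In the 4 controls, 13 genes (the 9 members and the 4 other pathway genes called) were examined for a single library far from the others; chance gives this in about 1 of 20 such groups, or 0.65 of 13, and it was seen for 2. For Notch2, control a stood alone at 164 CPM while the remaining controls held 175 to 176 CPM; the gap was 0.902 of the range and on the side of the UVB libraries. Without control a its log2 fold change was -0.32 (adjusted p = 0.00905 by edgeR). For Hes1, control b stood alone at 67.0 CPM while the remaining controls held 54.4 to 55.7 CPM, with a gap of 0.898 of the range; without control b the log2 fold change moved from -0.10 to -0.027. The 3 UVB libraries were too few to be examined this way.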

How the results depend on the processing

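Of the members, Notch2 passed and the other 8 did not in all 18 alternatives, which is 1 Notch gene called each time. The number of other pathway genes called, 4, was 7 with DESeq2 and 2 on log2(TPM + 1) without a filter, and it was 0 to 5 when 1 library was left out; without control c it was 0. Genes called over the whole table, 1787, were 851 to 1898 when 1 library was left out, and fewest without control c. The sign of Jag1, which lay near 0, was reversed in limma-voom (0.00059), on log2(TPM + 1) with the filter (0.0028) and without it (0.0028), on log2(TPM + 0.1) (0.0032), and without control b (0.0041), control d (0.059) or UVB b (0.044). Over the fits without 1 library Jag1 ran from -0.091 to 0.059 and Jag2 from -0.089 to 0.020. The sign of Jag2 was reversed without control a (0.020), UVB a (0.00016) or UVB c (0.0060). The cause was not tested. No direction changed for the other 7 members. No paired analysis was possible because no column name shows which numbered replicate it holds. Among the members, Dll1 and Heyl had the lowest counts and the largest SEs.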

Other observations

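Among the other pathway genes tested, 3 had absolute log2 fold changes above 0.5 and missed the threshold, and they were picked here after their values were seen. Rbpjl, a relative of Rbpj known from the exocrine pancreas, measured 8.73, 4.57, 5.24 and 3.46 CPM in controls a to d and 13.5, 10.3 and 8.21 CPM in UVB a to c, a log2 fold change of 0.96 (SE 0.30, adjusted p = 0.07 by edgeR); it passed in 3 of 18 alternatives. Only control a and UVB c crossed between the groups. Hes7, a HES family repressor known from the segmentation clock, measured 4.85, 6.21, 4.38 and 5.73 CPM in controls a to d and 4.17, 3.02 and 3.47 CPM in UVB a to c, without overlap, a log2 fold change of -0.58 (SE 0.19, adjusted p = 0.0711 by edgeR); it also passed in 3 of 18 alternatives. Rbpjl overlaps Matn4 in GRCr8 and Hes7 overlaps other loci, so both counts are uncertain. The same limit holds for Dll4, Dlk2, Egfl7, Ep300, Hes5, Hes6 and Snw1, which also overlap other loci there. Dlk1, a non-canonical Notch ligand, had 11 to 17 counts in controls and 7 to 10 after UVB, without overlap in CPM, and its log2 fold change was -0.72 (SE 0.33, adjusted p = 0.175 by edgeR).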
